A study of Mus musculus with 23 samples.

Results

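Khk, Slc2a5, Slc2a2, Fbp1, Pck1, G6pc and Slc5a1 are 7 genes that take fructose and glucose into the intestinal cell, use fructose, and make glucose. They were listed by name, with earlier results of these data known, and are 7 of the 22350 genes counted in RNA-seq. All 7 were present in every library's table. RNA-seq measured RNA of intestinal organoids, which are epithelial cultures grown from crypts. Ribo-seq counted the RNA fragments that ribosomes protect, called footprints here, after ribosomes were pulled down by an HA tag on the ribosomal protein RPL22. Values are CPM, the usual depth-scaled reads or footprints of a gene, here with TMM-scaled library sizes.

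All organoids came from mice with VillinCre.ERT2, a Cre driven by the villin promoter that acts throughout the intestinal epithelium after tamoxifen. WT organoids also carried RPL22.HA and were measured by RNA-seq, with 2 lines of 2 technical libraries each, which were summed. Rptor fl/fl organoids lack Raptor, a subunit of the growth kinase complex mTORC1, after induction. Their 2 RNA-seq lines, again of 2 technical libraries, were labelled VillinCre.ERT2.Rptor.fl/fl without the tag, and their 3 Ribo-seq libraries carried RPL22.HA. Stem cell enriched (SCe) organoids were VillinCre.ERT2.RPL22.HA cultures in medium with 10 µM CHIR 99021 and 1.5 mM valproic acid, with 3 libraries in each assay. The mice were C57BL/6, 8 to 12 weeks old, and carried Lgr5Cre.ERT2, active in Lgr5-positive stem cells, with RPL22.HA. They were WT or Rptor.fl/fl, 3 of each, and ribosomes were taken from lysate of the whole small intestine 24 h after a tamoxifen injection. The treatment label of these mice and of Rptor fl/fl organoids reads untreated, and tamoxifen is taken from the study's text. For SCe libraries and Ribo-seq of organoids no source used here says whether replicates came from separate animals, so p-values may measure only the spread between cultures.

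Enterocytes, the absorptive cells of the small intestine, take up glucose and galactose with sodium through SGLT1, the product of Slc5a1, and fructose through GLUT5, the product of Slc2a5. Sugars leave toward the blood through GLUT2, the product of Slc2a2. Ketohexokinase, encoded by Khk, phosphorylates fructose to fructose 1-phosphate, which is then turned into triose phosphates with the help of triokinase. Gluconeogenesis runs from oxaloacetate through phosphoenolpyruvate carboxykinase (Pck1) and fructose-1,6-bisphosphatase (Fbp1) to glucose-6-phosphatase (G6pc), which releases free glucose. The small intestine is known as a site where dietary fructose is turned into glucose and organic acids before it reaches the liver.

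Library totals were 27439432 to 67598842 reads per sample in RNA-seq, 1106157 to 8257453 footprints in Ribo-seq of organoids and 772034 to 8238353 in mice. SCe RNA-seq replicate 1 stood apart before any comparison. Its 18 enterocyte markers summed to 1132 CPM, against 5946 and 7026 CPM in SCe replicates 2 and 3 and 8213 to 8584 CPM in WT organoids, and its total was the lowest in RNA-seq. Of the 18 markers 1, Apoc3, was at 0 in it. All 7 genes were lower in it than in the other SCe libraries, so each RNA-seq result with SCe organoids is given with and without it. In SCe Ribo-seq replicate 1 the same marker sum was 1828 CPM, against 4035 and 4784 CPM in the other SCe libraries.

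The targeted gene Rptor had 51.5 and 47.9 CPM in WT, 60.8, 54.0 and 53.7 CPM in SCe and 14.8 and 15.5 CPM in Rptor fl/fl organoids by RNA-seq. Its log2 change against WT was -1.71 (SE 0.084, adjusted p = 0.00516), and the groups did not overlap. In Ribo-seq of organoids it had 17.2, 18.7 and 15.9 CPM in libraries carrying the Rptor fl/fl label and 15.2, 41.8 and 21.0 CPM in SCe libraries, which overlapped (log2 change -0.53, SE 0.34, adjusted p = 0.318). In mice the footprints were 41.5, 39.5 and 44.5 CPM in WT and 32.5, 34.2 and 36.7 CPM in Rptor fl/fl, which did not overlap but did not pass the test (log2 change -0.28, SE 0.12, adjusted p = 0.150). Where a deletion removes only part of a gene, reads on the rest remain. In both Ribo-seq data sets the level of Rptor therefore does not by itself establish the label, and Rptor fl/fl below means the libraries labelled so.

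The labelled Lgr5-positive origin was compared with markers in mice. Lgr5 itself had 11.3, 7.73 and 8.73 CPM in WT and 45.6, 8.49 and 6.29 CPM in Rptor fl/fl mice, and the 8 stem cell markers summed to 722 to 746 and 457 to 726 CPM. The 18 enterocyte markers summed to 70480.2 to 72455 CPM in WT and 81323 to 85867 CPM in Rptor fl/fl mice. The 6 immune markers (4121 to 4578 CPM) and the 6 smooth muscle markers (1261 to 1474 CPM) were also counted in every mouse. The footprints of mice are therefore read here as those of the tissue lysate after pulldown, in which markers of stem cells were only a part.

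The promoter stretches of Pck1, Khk and G6pc are shown because they hold letters read by factors known to act on genes of sugar metabolism. The promoters, from RefSeq on GRCm38.p6, run from 250 bases before to 50 bases after the start of transcription and were found for all 7 genes. The RefSeq starts of Pck1, Khk and G6pc lie inside the longer GENCODE spans given at the end. Searches on both strands used GTTAAT, any base and then ATTAA for hepatocyte nuclear factor 1 (HNF1) and GTTAAT for its short form, TGACGTCA for the cAMP response element (CRE) and TGACG for its short form, CAAAGTCCA for HNF4, and TATAAA. Each full site also contains its short form. In the lines that follow, 30 bases of the plus strand are printed 5′ to 3′ with the matching letters in capitals.
Pck1, HNF1 short form, chr2:173152869-173152898: ctcccaacattcATTAACaaccacaagttc
Pck1, CRE short form, chr2:173152971-173153000: gcctgccccttaCGTCAgaggcgagcctcc
Khk, HNF1 short form, chr5:30921487-30921516: tcacgtgacaccGTTAATctggcgcggggg
Khk, CRE short form, chr5:30921473-30921502: ggcagcgttcccCGTCAcgtgacaccgtta
G6pc, HNF1 short form, chr11:101367483-101367512: cagtgtgcccaaGTTAATaattggctctgc
G6pc, TATAAA, chr11:101367675-101367704: gaatccagggcaTATAAAacaggggcaagg

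The Pck1 matches began 192 and 90 bases before the start, those of Khk 60 and 74 bases before it, and those of G6pc 221 and 29 bases before it. The HNF1 short form was in 3 of the 7 promoters and in 7.1% of all 32851 promoters. The CRE short form was in 2 of 7 and in 20.8% of all, and TATAAA in 1 of 7 and in 13.6% of all. The full HNF1, CRE and HNF4 letters were in 0 of the 7 windows and in 0.0609%, 1.79% and 0.475% of all. These are matches of letters, not measured binding.

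Khk has a pair of alternative coding exons of 135 bases each, whose proteins are known as ketohexokinase A and C. They lie at chr5:30926688-30926822 and chr5:30927022-30927156 on the plus strand of GRCm38. Their first 30 bases follow 5′ to 3′, with the 15 positions that differ in capitals, since the choice between them is what separates the transcripts described further on.
Khk, first alternative exon: TttTGtCCtggAtgacCtcCgCcaACATTC
Khk, second alternative exon: CttCCtGGtggCtgacTtcAgGcaGAGGGG
Over all 135 positions 73 were identical (54.1%).

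The comparison of mice asked how footprints changed within a day of Rptor deletion in Lgr5-positive cells. Footprints rose on the 2 gluconeogenic enzymes Pck1 and G6pc and fell on the 3 sugar transporters and on Fbp1. Of the 7 genes, 2 passed the test as higher, where 7.48% of the 11515 genes tested did, and 4 as lower, where 5.97% did. The log2 changes of the 6 ran from -0.55 to 1.28. Khk was the gene that did not pass. The groups of 3 mice did not overlap for any of the 7. How many of all genes tested also did not overlap was not counted. In bulk samples like these, fewer cells of a type and less RNA per cell cannot be told apart. Mice were measured by footprints alone, so a change in RNA and a change in ribosomes per RNA cannot be told apart either.

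G6pc, the last step of glucose production, had 45.3, 28.2 and 40.9 CPM in the 3 WT mice and 96.7, 93.3 and 85.4 CPM in the 3 Rptor fl/fl mice. The highest WT mouse was below the lowest Rptor fl/fl mouse. The difference was 2.44-fold (log2 change 1.28, SE 0.13, adjusted p = 8.95e-06, edgeR's quasi-likelihood test with Benjamini-Hochberg adjustment, as for every adjusted p). Pck1, the enzyme that commits oxaloacetate to gluconeogenesis, had 400.1, 439 and 459 CPM in the 3 WT mice and 677, 836 and 905 CPM in the 3 Rptor fl/fl mice. All 3 Rptor fl/fl mice were above all 3 WT mice, a 1.85-fold difference (log2 change 0.89, SE 0.10, adjusted p = 1.66e-05). Fbp1, which acts between them, went the other way. It had 73.0, 73.2 and 66.5 CPM in the 3 WT mice and 55.1, 51.8 and 42.6 CPM in the 3 Rptor fl/fl mice, with no overlap (log2 change -0.51, SE 0.12, adjusted p = 0.00943). The call of Fbp1 was lost without WT mouse 2 (adjusted p = 0.0545) and without Rptor fl/fl mouse 3 (adjusted p = 0.0624), and its adjusted p ranged from 0.00214 to 0.252 across the alternatives tried.

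Slc2a5, the fructose transporter of the brush border, had 206, 187 and 189 CPM in the 3 WT mice and 126, 138 and 129.5 CPM in the 3 Rptor fl/fl mice. The 3 Rptor fl/fl mice lay together below the WT mice (log2 change -0.55, SE 0.082, adjusted p = 0.000308, 1.47-fold lower). Slc2a2, which carries glucose and fructose out of the cell, had 391, 426 and 378 CPM in the 3 WT mice and 303, 275 and 252 CPM in the 3 Rptor fl/fl mice. Again all Rptor fl/fl mice were lower (log2 change -0.53, SE 0.085, adjusted p = 0.000594, 1.45-fold). Slc5a1, the sodium-glucose transporter and the member with the most footprints, had 2797, 2977 and 2747 CPM in the 3 WT mice and 2337, 2405 and 2337 CPM in the 3 Rptor fl/fl mice. The drop was 1.20-fold and without overlap (log2 change -0.27, SE 0.063, adjusted p = 0.0104), and it missed the threshold without WT mouse 2 (adjusted p = 0.0794) or without Rptor fl/fl mouse 2 (adjusted p = 0.054). Khk, the first enzyme of fructose use, had 338, 317 and 322 CPM in the 3 WT mice and 272, 304 and 304 CPM in the 3 Rptor fl/fl mice. Its groups did not overlap by a small margin, and its log2 change of -0.14 (SE 0.076, adjusted p = 0.247) has a 95% interval of -0.30 to 0.019. With effective lengths as an offset, the calls of Slc2a2 (adjusted p = 0.13) and Fbp1 (adjusted p = 0.252) were lost.

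**Figure D1:**
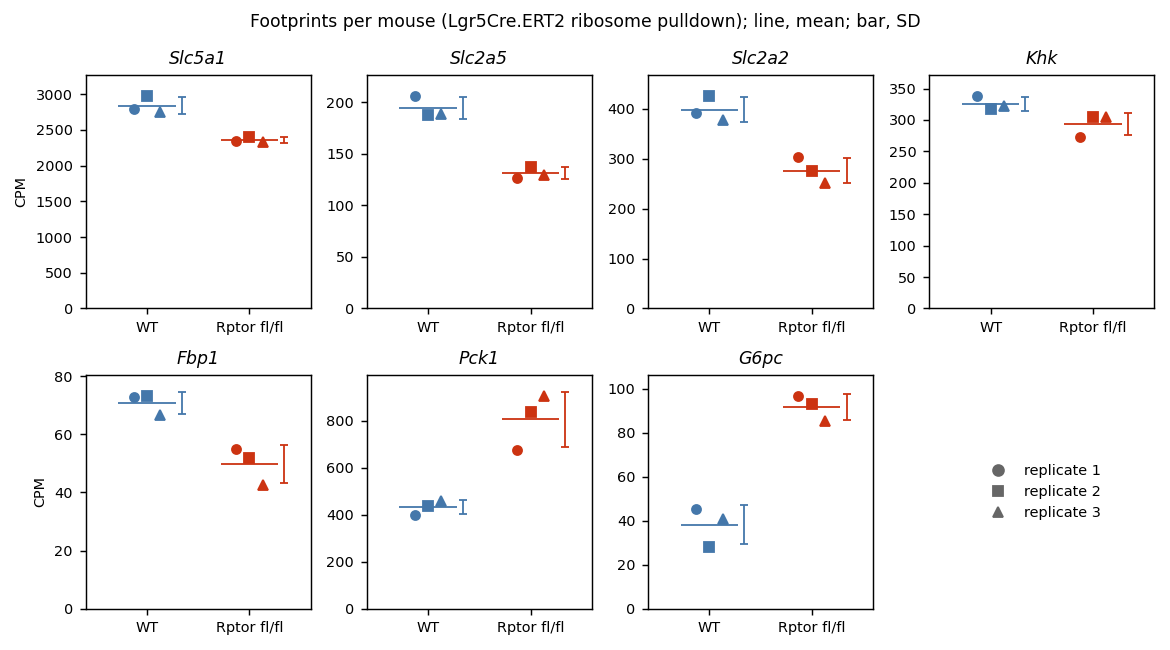
Footprints of the 7 genes in mice, in CPM on linear axes. Points are the 3 WT and 3 Rptor fl/fl mice, lines their means and bars the SD. Pck1 and G6pc are higher and the other 5 lower in all 3 Rptor fl/fl mice than in any WT mouse.

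Enterocyte markers did not fall with the transporters. They summed to 70480.2 to 72455 CPM in WT and 81323 to 85867 CPM in Rptor fl/fl mice, with 8 of 18 markers higher, 2 lower and a median log2 change of 0.20, where the median of all genes was -0.015. Taken per 1000 CPM of these markers, the footprints of all 7 genes kept the same direction and did not overlap between the groups. For the genes that were lower this followed from the arithmetic, since the marker sum was higher in every Rptor fl/fl mouse. It is therefore no separate result for them, and the share of all genes that behave so was not counted. Pck1 was 5.62 to 6.51 in WT and 8.33 to 10.5 in Rptor fl/fl, and G6pc 0.389 to 0.637 and 0.994 to 1.19. Slc5a1 was 39.0 to 41.1 and 27.2 to 28.7, and Khk 4.38 to 4.76 and 3.35 to 3.56. Markers of gut position moved as well. The 2 ileal markers summed to 887 to 1169 CPM in WT and 1284 to 1463 CPM in Rptor fl/fl, and the 3 proximal markers to 112 to 116 and 82.1 to 97.7 CPM. The 5 erythroid genes summed to 153 to 177 and 812 to 985 CPM, the 6 stromal markers to 984 to 1016 and 1225 to 1471 CPM and the 7 goblet markers to 25148 to 25430.2 and 29785 to 33325 CPM. Paneth cell markers went the other way, with 3 of 6 tested lower, 0 higher and a median log2 change of -0.71. They summed to 8696, 8988 and 9545 CPM in WT and 8442, 5102 and 4919 CPM in Rptor fl/fl mice, without overlap. Of the enterocyte, ileal, proximal, stromal, goblet and Paneth markers counted, 0 were at 0 in any mouse. The part of these markers in the changes of the 7 genes was not tested.

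The other genes of these pathways moved in both directions in mice. Of the genes of fructose handling, 11 of the 12 listed were tested, 2 rose and 1 fell, with a median log2 change of -0.054. Slc2a7, a hexose transporter, fell (log2 change -1.22, adjusted p = 8.91e-05), while Txnip, which promotes removal of glucose transporters from the cell surface (log2 change 0.39, adjusted p = 0.00135), and Mlx, the partner of the carbohydrate-sensing factor ChREBP (log2 change 0.34, adjusted p = 0.0204), rose. Tkfc, the triokinase that acts after Khk, did not pass the test. For gluconeogenesis and its substrates, 13 of the 14 genes were tested, 2 rose and 3 fell, with a median log2 change of -0.058. Glutamate dehydrogenase Glud1 fell (log2 change -0.72, adjusted p = 9.10e-06), and pyruvate carboxylase Pcx, the step before Pck1, rose (log2 change 0.57, adjusted p = 0.00229) with malate dehydrogenase Mdh2 (log2 change 0.30, adjusted p = 0.00871). Among transcriptional regulators, 16 of the 16 genes were tested, 2 rose and 2 fell, with a median log2 change of -0.061. They included Hnf4g at 0.49 (adjusted p = 0.000406), Gata4 at -0.33 (adjusted p = 0.0353), which is also among the proximal markers, and Cdx2 at -0.33 (adjusted p = 0.0437). For other sugar transporters, 7 of the 12 genes were tested, 1 rose and 2 fell, with a median log2 change of 0.074. Slc5a4a and Slc5a4b, relatives of Slc5a1, fell with it (Slc5a4a at -0.93, adjusted p = 7.90e-05, and Slc5a4b at -0.66, adjusted p = 0.000829), and the glucose transporter Slc2a1 rose (log2 change 0.64, adjusted p = 0.0168).

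In RNA-seq, Rptor fl/fl organoids were compared with WT organoids to ask how RNA differed with deletion across the epithelium. By the labels only the WT lines carried RPL22.HA, and this difference cannot be told apart from the deletion. Fbp1 fell, and the other 6 genes did not pass the test. This is 1 of 7 lower, where 11% of 14131 genes were, and 0 of 7 higher, where 11.6% were. DESeq2 and an unadjusted p under 0.05 gave the same counts, 1 and 0. At that unadjusted p 2853 of the 14131 genes were lower and 2786 higher, and the counts over all genes by DESeq2 are not given here. Fbp1 had 13.1 and 14.9 CPM in the 2 WT lines and 3.72 and 5.42 CPM in the 2 lines with Rptor deleted. Both Rptor fl/fl lines were below both WT lines, a 3.06-fold difference (log2 change -1.62, SE 0.21, adjusted p = 0.0162). In a single fit over the 3 RNA-seq groups, which includes the SCe replicate that stood apart, the adjusted p was 0.364.

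The other members were spread widely between the 2 Rptor fl/fl lines, of which replicate 1 was the lower for all 7. Slc2a5 had 31.9 and 34.4 CPM in the 2 WT lines and 17.5 and 31.6 CPM in the 2 lines with Rptor deleted, which did not overlap (log2 change -0.43, SE 0.29, adjusted p = 0.321). Without Rptor fl/fl replicate 2 its log2 change was -0.90 with an adjusted p of 0.0226. Slc2a2 had 47.5 and 54.2 CPM in the 2 WT lines and 41.0 and 71.3 CPM in the 2 lines with Rptor deleted, so the Rptor fl/fl lines lay on either side of the WT lines (95% interval of the log2 change -0.56 to 0.85). Khk did the same, with 112 and 123 CPM in the 2 WT lines and 99.2 and 151 CPM in the 2 lines with Rptor deleted (interval -0.45 to 0.63). Slc5a1 had 401 and 398 CPM in the 2 WT lines and 412 and 602 CPM in the 2 lines with Rptor deleted and did not overlap, and without Rptor fl/fl replicate 1 its log2 change of 0.59 passed the test (adjusted p = 0.0328). G6pc had 7.35 and 9.78 CPM in the 2 WT lines and 5.19 and 8.40 CPM in the 2 lines with Rptor deleted and Pck1 0.963 and 1.59 CPM in the 2 WT lines and 0.890 and 1.21 CPM in the 2 lines with Rptor deleted, both overlapping. Their log2 changes were -0.33 (SE 0.28, adjusted p = 0.431) and -0.28 (SE 0.35, adjusted p = 0.594). Pck1 was counted on few reads, 51 and 79 reads in WT and 46 and 69 in Rptor fl/fl lines. The enterocyte markers summed to 8213 and 8584 CPM in WT and 7117 and 9842 CPM in Rptor fl/fl organoids, the lower again in replicate 1, and 5 of 18 markers fell and 1 rose. Markers of other epithelial cells moved further. Paneth cell markers summed to 4953 and 6176 CPM in WT and 883 and 1849 CPM in Rptor fl/fl lines, and 6 of 7 fell. Stem cell markers summed to 4875 and 6619.9 CPM and 1957 and 3306 CPM, and 6 of 8 fell. Goblet cell markers summed to 1592 and 1695 CPM and 2952 and 4056 CPM, and 5 of 7 rose. Of 8 enteroendocrine markers 2 fell. The part of these markers in the results was not tested.

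Around them, 1 of 11 genes of fructose handling rose, Txnip at 0.83 (adjusted p = 0.0109). Of 13 genes of gluconeogenesis, mitochondrial Pck2 fell (log2 change -1.35, adjusted p = 0.00891) and G6pc3, the glucose-6-phosphatase found in most tissues, rose (log2 change 0.28, adjusted p = 0.0447). Of 16 regulators 2 rose and 3 fell, among them the coactivator Ppargc1a (log2 change 1.43, adjusted p = 0.0115), Ppara, a receptor for fatty acids (log2 change -0.65, adjusted p = 0.0173), and Creb1 (log2 change -0.41, adjusted p = 0.0176). Of 7 other sugar transporters 2 rose and 1 fell, with Slc5a4b at -2.08 (adjusted p = 0.0241), Slc5a9 at 0.69 (adjusted p = 0.0252) and Slc2a4 at 1.48 (adjusted p = 0.0403). The medians of the 4 lists were 0.15, 0.0048, 0.027 and 0.39, where that of all genes was -0.0049.

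SCe organoids were set against WT organoids to ask what the stem cell medium did. G6pc RNA was several times higher in 2 of the 3 SCe libraries and almost absent from the other. It had 0.0669, 36.1 and 37.0 CPM in SCe replicates 1 to 3, against 7.35 and 9.78 CPM in WT lines. Replicate 1 held 2 reads. With all libraries 0 of 7 genes passed the test by edgeR, where 22.4% of 14925 genes were higher and 19.9% lower. At an unadjusted p under 0.05 it was 0 of 7, where 4097 genes were higher and 3686 lower. By DESeq2 0 of 7 passed as well. Without SCe replicate 1, 4 of 7 were higher and 1 lower, where 31.9% of 14855 genes were higher and 32.2% lower.

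Without that replicate G6pc was 4.32-fold higher (log2 change 2.11, SE 0.14, adjusted p = 0.000268), and with it the log2 change was 1.54 (SE 1.64, adjusted p = 0.485). Slc5a1 had 129, 600.1 and 576 CPM in SCe replicates 1 to 3. Replicates 2 and 3 were above both WT lines and replicate 1 far below (log2 change 0.15, SE 0.66, adjusted p = 0.876 with it, and 0.58, SE 0.056, adjusted p = 0.000709 without it). Fbp1 had 1.34, 18.3 and 20.9 CPM in SCe replicates 1 to 3, with the same split (with it log2 change -0.023, SE 1.00, adjusted p = 0.987, and without it 0.50, SE 0.11, adjusted p = 0.0116). Khk had 30.7, 140.3 and 145 CPM in SCe replicates 1 to 3 (with it log2 change -0.14, SE 0.66, adjusted p = 0.884, and without it 0.30, SE 0.062, adjusted p = 0.00967). Slc2a5 was the gene that was lower without replicate 1. It had 3.98, 26.9 and 24.8 CPM in SCe replicates 1 to 3 (with it log2 change -0.80, SE 0.75, adjusted p = 0.426, and without it -0.34, SE 0.076, adjusted p = 0.0118). Slc2a2 had 2.27, 40.5 and 46.8 CPM in SCe replicates 1 to 3, and Pck1 0.0334, 1.15 and 2.12 CPM in SCe replicates 1 to 3. They did not pass with replicate 1 (adjusted p = 0.606 and 0.922) or without it (adjusted p = 0.142 and 0.467). Enterocyte markers in SCe replicates 2 and 3 summed to 5946 and 7026 CPM, below the WT lines at 8213 and 8584 CPM. Khk, Fbp1, G6pc and Slc5a1 were above the WT lines in these replicates. The markers were split, with 1 of 18 higher and 2 lower with all libraries, and 4 higher and 9 lower without replicate 1.

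Markers of other cell types moved as well in SCe organoids. Stem cell markers summed to 3297, 2507 and 2466 CPM in SCe replicates 1 to 3, against 4875 and 6619.9 CPM in WT lines. Of these 8 markers 1 rose and 2 fell, or 2 rose and 4 fell without replicate 1. Goblet cell markers summed to 245, 364 and 429 CPM in SCe replicates 1 to 3, against 1592 and 1695 CPM in WT lines, and 6 of 7 fell, or 7 of 7 without replicate 1. Enteroendocrine markers summed to 4.05, 25.7 and 33.6 CPM against 213 and 314 CPM, and 6 of 8 fell, or 8 of 8 without replicate 1. The proximal markers summed to 288, 315 and 288 CPM against 640.0 and 658 CPM, and 2 of 3 fell, or 3 of 3 without it. Stromal markers rose, from 2.34 and 3.43 CPM in WT to 96.3, 69.8 and 115 CPM in SCe libraries, and all 3 of those tested passed with and without replicate 1. The part of these markers in the results on the 7 genes was not tested.

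**Figure D2:**
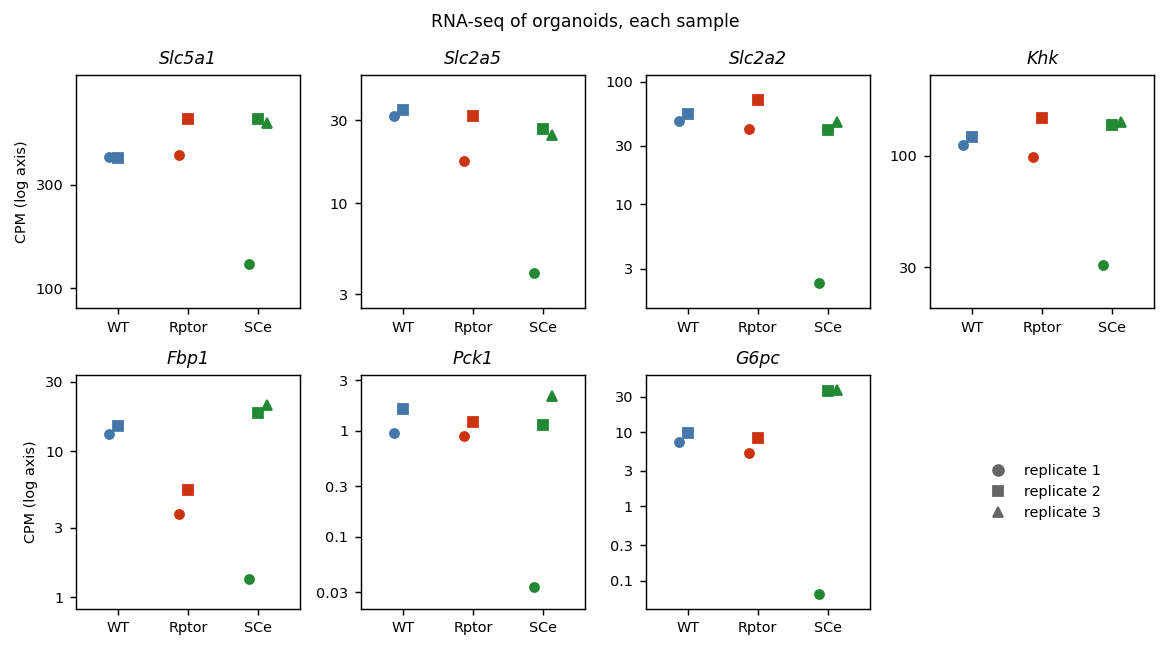
RNA of the 7 genes in organoids, in CPM on log axes. Points are the WT lines (2), Rptor fl/fl lines (2) and SCe libraries (3). SCe replicate 1 lies below the other SCe libraries for every gene, and Fbp1 is lower in both Rptor fl/fl lines than in WT lines.

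The regulators were the list with the most genes on one side. With all libraries 11 of 16 fell and 1 rose in SCe against WT organoids (median log2 change -0.67, 0.023 for all genes), and without SCe replicate 1 14 fell and 1 rose. The smallest adjusted p were those of Hnf4a, a nuclear receptor of enterocyte and liver genes (log2 change -1.12, adjusted p = 0.00199), the glucocorticoid receptor Nr3c1 (log2 change -0.87, adjusted p = 0.00201) and Ppargc1a (log2 change 1.91, adjusted p = 0.00221), the gene that rose. Hnf4a RNA was 449, 501 and 430.4 CPM in SCe and 1023 and 1007 CPM in WT organoids, with no overlap and no separation of replicate 1. In fructose handling 4 of 11 rose and 2 fell, led by Mlx at -1.27 (adjusted p = 0.00119), Rab11a at 0.41 (adjusted p = 0.00617) and Sord at 0.68 (adjusted p = 0.00798). In gluconeogenesis 3 of 13 rose and 2 fell, led by Got2 at 0.85 (adjusted p = 0.00519), G6pc3 at 0.39 (adjusted p = 0.0107) and Gpt at -1.50 (adjusted p = 0.0375). Of 8 other sugar transporters 2 rose and 1 fell, led by Slc2a3 at 4.03 (adjusted p = 0.00551), Slc5a4b at -3.60 (adjusted p = 0.00559) and Slc2a4 at 1.80 (adjusted p = 0.0109).

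The comparison of Rptor fl/fl with SCe organoids shares the SCe libraries with the one above and the Rptor fl/fl lines with the first. Its groups differ in Rptor genotype, in medium and in the RPL22.HA label, which cannot be told apart. With all libraries 0 of 7 genes passed by edgeR, where 21% of 15103 genes were higher and 21.8% lower. At an unadjusted p under 0.05 it was 0 of 7, where 3895 genes were higher and 4035 lower. By DESeq2 0 of 7 passed as well. Without SCe replicate 1, 2 of 7 were lower in Rptor fl/fl, where 30.2% of 14953 genes were lower and 30.6% higher. They were G6pc (log2 change -1.85, SE 1.67, adjusted p = 0.413 with replicate 1, and -2.42, SE 0.22, adjusted p = 0.000638 without) and Fbp1 (log2 change -1.57, SE 1.07, adjusted p = 0.286 with, and -2.10, SE 0.21, adjusted p = 0.000746 without). The log2 changes of the other 5 without replicate 1 ran from -0.63 to 0.36. In the same contrast 7 of 7 goblet and 3 of 8 enteroendocrine markers were higher in Rptor fl/fl, and 3 of 7 Paneth and 3 of 3 stromal markers lower. Of 8 stem cell markers 2 were higher and 4 lower in Rptor fl/fl. The part of these markers was not tested. Of the 16 regulators 10 were higher in Rptor fl/fl, and without replicate 1 14 were higher and 1 lower. With all libraries they were led by Cebpb at 1.73 (adjusted p = 0.00202), Nr3c1 at 0.72 (adjusted p = 0.00262) and Foxo3 at 0.77 (adjusted p = 0.00292). Fructose handling gave 2 of 11 higher and 2 lower, led by Mlx at 1.13 (adjusted p = 0.00111), Sord at -0.92 (adjusted p = 0.00430) and Rab11a at -0.42 (adjusted p = 0.00831). Gluconeogenesis gave 2 of 13 higher and 3 lower, led by Got2 at -0.74 (adjusted p = 0.00709), Mdh1 at -0.40 (adjusted p = 0.0120) and Gpt2 at -2.36 (adjusted p = 0.0126), and other sugar transporters 1 of 8 higher and 1 lower, with Slc2a3 at -3.83 (adjusted p = 0.00227) and Slc5a4b at 1.56 (adjusted p = 0.0468).

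Footprints of organoids were compared between Rptor fl/fl and SCe cultures, the pair in which the study contrasted stem cell states. Genotype and medium differ together in this pair, also for translation efficiency below, and cannot be told apart. Fbp1 and both hexose transporters Slc2a2 and Slc2a5 carried more footprints in Rptor fl/fl organoids. This is 3 of 6 tested genes higher, where 6.63% of 10817 genes were, and 0 lower, where 9.84% were. DESeq2 gave the same counts, 3 and 0, as did an unadjusted p under 0.05. At that unadjusted p 1612 of the 10817 genes were higher and 1873 lower, and the counts over all genes by DESeq2 are not given here. Without SCe Ribo-seq replicate 1 the same 3 passed, where 10.4% of 11261 genes were higher and 13.4% lower. With effective lengths as an offset the adjusted p of the 3 were 0.126 to 0.282. Fbp1 kept its call when any single library was left out. Slc2a2 and Slc2a5 lost theirs without any single Rptor fl/fl library and without SCe replicate 2, at adjusted p of 0.0532 to 0.0725 for Slc2a2 and 0.071 to 0.103 for Slc2a5.

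Fbp1 had 46.3, 38.0 and 46.2 CPM in Rptor fl/fl and 5.41, 12.8 and 14.3 CPM in SCe organoids. Every Rptor fl/fl library was above every SCe library, and the difference was 3.90-fold (log2 change 1.97, SE 0.31, adjusted p = 0.00482, and 1.65, SE 0.21, adjusted p = 0.00120 without SCe replicate 1). In RNA-seq the same gene was lower in Rptor fl/fl than in SCe replicates 2 and 3. Slc2a2 had 33.3, 37.2 and 30.8 CPM in Rptor fl/fl and 3.25, 11.1 and 14.8 CPM in SCe organoids, again with no overlap (log2 change 1.72, SE 0.39, adjusted p = 0.0193, and 1.31, SE 0.22, adjusted p = 0.00404 without SCe replicate 1). Slc2a5 had 33.3, 36.5 and 38.8 CPM in Rptor fl/fl and 3.79, 13.7 and 17.8 CPM in SCe organoids, also with no overlap (log2 change 1.56, SE 0.40, adjusted p = 0.0303, and 1.15, SE 0.21, adjusted p = 0.00549 without SCe replicate 1). Khk had 112, 111 and 108 CPM in Rptor fl/fl and 48.7, 99.0 and 81.2 CPM in SCe organoids, so that all Rptor fl/fl libraries were higher, but it did not pass (log2 change 0.54, SE 0.24, adjusted p = 0.160). Slc5a1 had 413, 352 and 386 CPM in Rptor fl/fl and 119.7, 279.9 and 411 CPM in SCe organoids, which overlapped (log2 change 0.50, SE 0.37, adjusted p = 0.387). G6pc had 5.97, 6.82 and 6.20 CPM in Rptor fl/fl and 0.541, 7.68 and 4.15 CPM in SCe organoids, also overlapping (log2 change 0.71, SE 0.59, adjusted p = 0.449). Its footprints numbered 36, 43 and 51 in Rptor fl/fl and 1, 9 and 18 in SCe libraries. Pck1 had 8, 4 and 12 footprints in Rptor fl/fl and 2, 0 and 0 in SCe libraries, too few to be tested. The 3 genes that passed also rested on few footprints in SCe replicates 1 to 3. These were 10, 15 and 62 for Fbp1, 6, 13 and 64 for Slc2a2 and 7, 16 and 77 for Slc2a5.

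**Figure D3:**
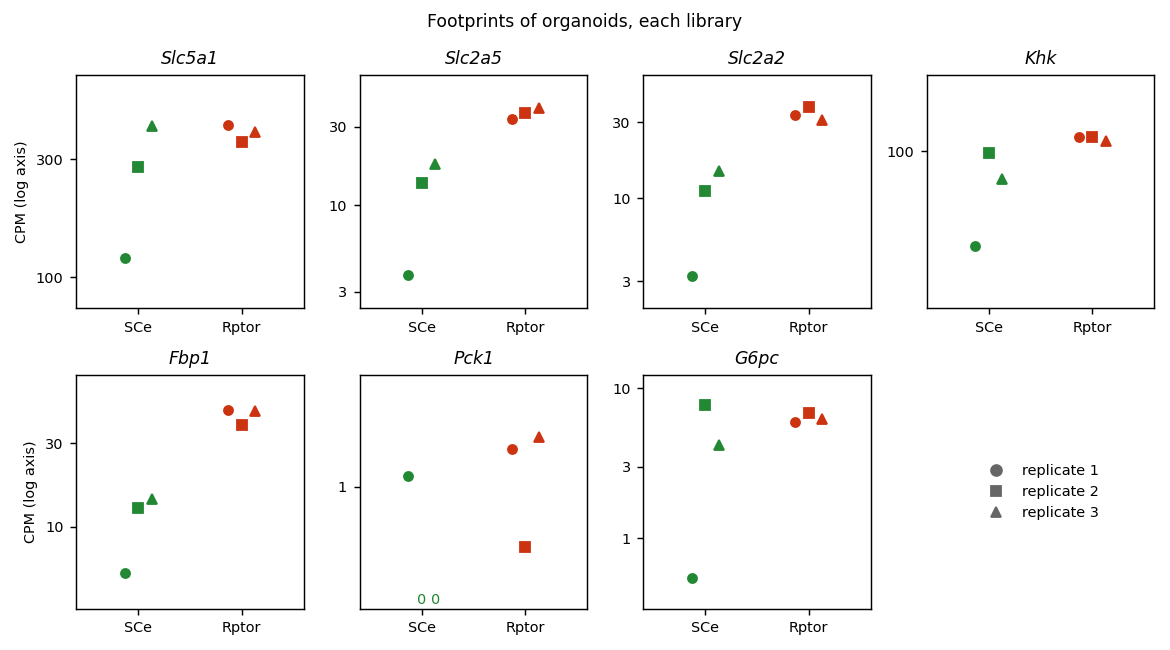
Footprints of the 7 genes in organoids, in CPM on log axes, for 3 Rptor fl/fl and 3 SCe libraries. Libraries without a footprint are marked 0. Fbp1, Slc2a2, Slc2a5 and Khk show no overlap, though Khk did not pass the test, and the SCe libraries are spread more widely than the Rptor fl/fl libraries. How many of all genes show no overlap was not counted.

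The enterocyte markers moved in the same direction. They summed to 7565, 7756 and 7911 CPM in Rptor fl/fl and 1828, 4035 and 4784 CPM in SCe organoids, and 7 of 18 markers were higher and 1 lower (median log2 change 1.36, -0.023 for all genes). Per 1000 CPM of these markers Fbp1 was 4.90 to 6.12 in Rptor fl/fl and 2.96 to 3.17 in SCe organoids, Slc2a2 3.89 to 4.80 and 1.78 to 3.09, and Slc2a5 4.41 to 4.90 and 2.07 to 3.71. These 3 stayed higher in every Rptor fl/fl library than in any SCe library. Khk was 13.7 to 14.8 in Rptor fl/fl and 17.0 to 26.7 in SCe organoids and Slc5a1 45.4 to 54.6 and 65.4 to 85.9, so that on this scale both were lower in every Rptor fl/fl library. The marker sum was itself higher in every Rptor fl/fl library, so a gene that rose less than the sum was lower on this scale by arithmetic. The share of all genes that did not overlap on this scale, in either direction, was not counted. Erythroid genes, which mark red blood cells, summed to 249, 1.71 and 124 CPM in SCe replicates 1 to 3 and to 1.46 to 4.64 CPM in Rptor fl/fl libraries, and stromal markers to 143, 236 and 809 and 5.71 to 9.78 CPM. Goblet cell markers summed to 2870 to 4543 CPM in Rptor fl/fl and 1080 to 1484 CPM in SCe libraries, with 6 of 7 higher and a median log2 change of 2.39. Enteroendocrine markers summed to 546 to 666 and 41.7 to 91.9 CPM, with 4 of 8 higher and a median of 2.35, and 3 of 4 tuft markers tested were higher. Both medians were above that of the enterocyte markers. Stem cell markers summed to 6238.5 to 6394 CPM in Rptor fl/fl and 2761 to 4799.9 CPM in SCe libraries, with 1 of 8 higher and 4 lower. The part of these cell type markers in the result was not tested.

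In fructose handling 2 of 9 genes tested were higher, among them triokinase, Tkfc, which acts after Khk (log2 change 1.56, adjusted p = 0.00429). Gluconeogenesis gave 2 of 13 higher and 2 lower, led by Gpt at 1.80 (adjusted p = 0.00217), Got2 at -0.80 (adjusted p = 0.00919) and G6pc3 at -0.77 (adjusted p = 0.0202). Regulators gave 4 of 16 higher and 1 lower, led by Ppara at 3.75 (adjusted p = 0.000510), Ppargc1a at -2.20 (adjusted p = 0.00372) and Hnf4g at 2.32 (adjusted p = 0.00421), and other sugar transporters 0 of 4 by edgeR, also at an unadjusted p under 0.05. The medians of the 4 lists were 0.074, -0.16, 0.44 and 0.59.

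Translation efficiency, the footprints of a gene relative to its RNA, was compared between Rptor fl/fl and SCe organoids as the interaction of assay and group. Fbp1 had the largest change of the 6 genes tested, and whether it passed turned on how the SCe libraries were treated. With all libraries unpaired 0 of 6 passed by edgeR, where 1.12% of 10747 genes were higher and 1.81% lower. Fbp1 alone had an unadjusted p under 0.05 (0.00809), where 937 of all genes were higher and 1238 lower. By DESeq2 1 of the members passed, and the number of all genes called by it is given further on. SCe libraries with the same number deviated together in the assays, so the number was also used as a block. Same-numbered RNA-seq samples of different groups did so too, and the pairing is therefore an assumption. With this block Fbp1 and G6pc were higher in Rptor fl/fl, 2 of 6, where 2.06% of genes were higher and 2.65% lower. Without SCe replicate 1 in both assays 3 of 6 were higher, where 8.22% of 11162 genes were higher and 10.3% lower.

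For Fbp1 the log2 change in translation efficiency was 3.60 (SE 1.11, adjusted p = 0.106) unpaired, 3.38 (SE 0.55, adjusted p = 0.0120) with the block and 3.81 (SE 0.31, adjusted p = 0.000276) without SCe replicate 1. The gene's RNA was lower and its footprints were higher in Rptor fl/fl than in SCe replicates 2 and 3. For G6pc it was 2.64 (SE 1.89, adjusted p = 0.478), 2.62 (SE 0.61, adjusted p = 0.0408) and 2.80 (SE 0.43, adjusted p = 0.00374). Its footprints overlapped between the groups, while its RNA in SCe replicates 2 and 3 was several times that of Rptor fl/fl lines. For Slc2a5 it was 1.22 (SE 0.93, adjusted p = 0.508), 1.19 (SE 0.39, adjusted p = 0.110) and 1.26 (SE 0.38, adjusted p = 0.0441). Slc2a2, Khk and Slc5a1 did not pass in any of the 3 fits, with unpaired 95% intervals of -1.83 to 3.56, -1.20 to 1.91 and -1.39 to 2.08. The RNA-seq lines labelled Rptor fl/fl were not labelled with the RPL22.HA tag of the Ribo-seq lines, so the genotype labels of the assays differ in that group and not in SCe. Rptor itself passed as higher in the same fits as G6pc, with a log2 change in translation efficiency of 1.43 (SE 0.39, adjusted p = 0.0774) unpaired, 1.47 (SE 0.36, adjusted p = 0.0478) with the block and 1.19 (SE 0.31, adjusted p = 0.0284) without SCe replicate 1. Its RNA was 3.70-fold lower in Rptor fl/fl than in SCe organoids. Its footprints were not lower past the test (log2 change -0.53, SE 0.34), on 28, 49 and 91 footprints in SCe libraries. Whether the Rptor fl/fl lines of the assays differed in the targeted gene was not tested. Each translation efficiency value rests on both sets of lines. Of the lists, fructose handling gave 1 of 9 higher, sorbitol dehydrogenase or Sord at 1.05 (adjusted p = 0.0224). Gluconeogenesis gave 1 of 13 higher, mitochondrial Pck2 at 1.75 (adjusted p = 0.0406). Regulators gave 1 of 16 higher, Ppara at 2.21 (adjusted p = 0.0404), and 1 lower, Ppargc1a at -1.71 (adjusted p = 0.0333), and other sugar transporters 0 of 4, also at an unadjusted p under 0.05.

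**Figure D4:**
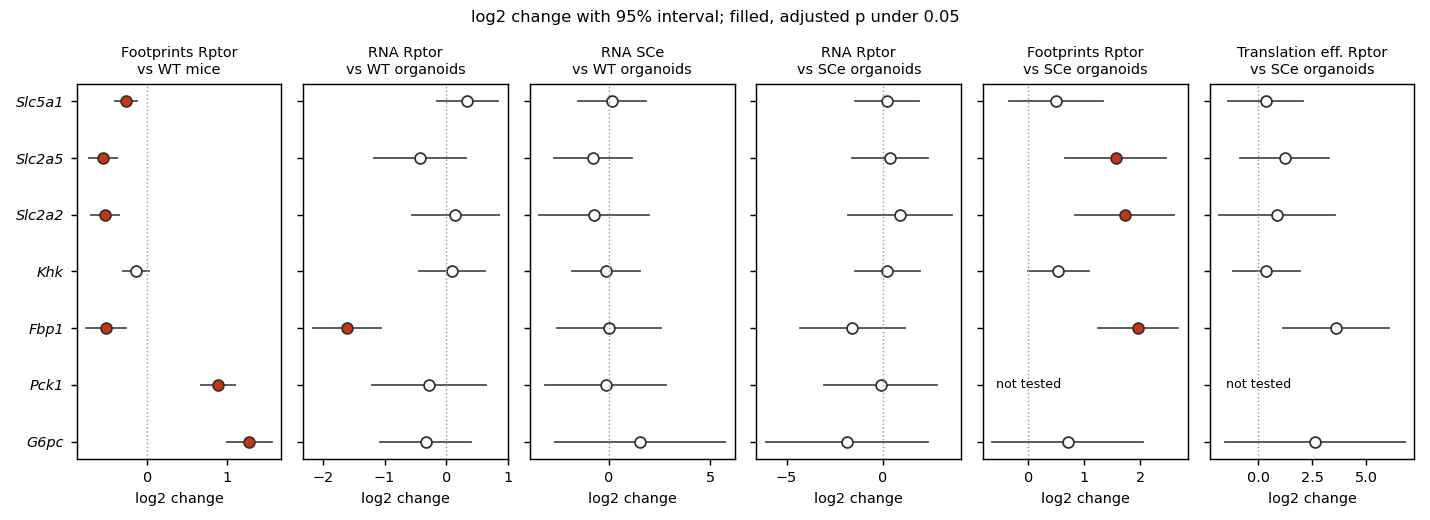
Log2 change of each gene in 6 comparisons with 95% intervals, all libraries included. Filled points have an adjusted p under 0.05. Intervals of RNA-seq comparisons with SCe organoids and of translation efficiency are wide, and in mice Pck1 and G6pc lie above and Slc2a5, Slc2a2, Fbp1 and Slc5a1 below 0.

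Levels between the genes can be compared per length, by the authors' TPM, within a group. In WT organoid RNA Slc5a1 had a median of 128 TPM (127 to 129) and Khk 127 TPM (122 to 132), which overlapped. Slc2a2 followed with 19.8 TPM (18.7 to 20.9), then Fbp1 with 14.1 TPM (13.3 to 14.9) and Slc2a5 with 14.0 TPM (13.5 to 14.5), whose ranges overlapped. G6pc had 4.88 TPM (4.21 to 5.55) and Pck1 0.653 TPM (0.493 to 0.813), each below the ranges of the genes before it. In footprints of WT mice Slc5a1 led with 823 TPM (809.8 to 868). Khk (209 TPM, 204 to 216) and Slc2a2 (199 TPM, 195 to 237) came next, overlapping, then Pck1 with 142 TPM (131 to 150.4). Fbp1 (57.2 TPM, 56.5 to 64.8) and Slc2a5 (56.1 TPM, 55.0 to 61.2) overlapped, and G6pc was last with 22.3 TPM (15.2 to 24.6). Pck1 was thus the lowest of the 7 in WT organoid RNA and above Fbp1, Slc2a5 and G6pc in footprints of WT mice, on scales that come from different assays and references. In Rptor fl/fl mice Pck1 had 281 TPM (230.3 to 301), above Khk with 199 TPM (185 to 201) and Slc2a2 with 161 TPM (154 to 196).

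Khk has 4 coding transcripts that hold both alternative exons, only the first, only the second, or neither. In RNA of WT organoids 52.5 to 53.3% of the gene's TPM were assigned to the transcript with only the second exon, 29.4 to 30.5% to the one with both and 4.00 to 4.90% to the one with only the first. Rptor fl/fl lines had 50.2 to 52.0%, 31.1 to 33.4% and 5.20 to 6.90%. These were near the WT values but did not overlap them, and the difference was not tested. SCe libraries had 16.7 to 19.6% for both exons and 21.8 to 38.4% for neither, against 12.3 to 13.0% in WT and 9.40 to 11.7% in Rptor fl/fl lines. The share with both exons was lower and the share with neither higher in all 3 SCe libraries than in any other, and this difference was not tested. Transcripts of a gene share most of their reads, so the shares depend on how these were divided by the authors' quantification. In mice 87.5 to 93.1% of WT and 88.9 to 93.2% of Rptor fl/fl values fell on the transcript with both exons, on another reference, and the groups overlapped. In Ribo-seq of organoids the shares of the transcript with only the second exon were 61.6 to 81.1% in Rptor fl/fl and 39.7 to 88.3% in SCe libraries.

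The genes with the most similar RNA pattern over the 7 organoid samples were named by the Pearson correlation of log2 CPM, as a description. SCe replicate 1 is among the points and is low in all 7 genes. For Khk they included Slc22a13 and Pygl (r = 0.991 and 0.990), and for Slc2a5 Hadh, Ptprn2 and H2-T3 (r = 0.990 to 0.996). For Slc2a2 they were Ugt1a9, Sis and Ces2e (r = 0.993 to 0.996), and for Fbp1 Cth, Acy1 and Npc1l1 (r = 0.981 to 0.996). For Pck1 they were Bola3, Slc5a11 and Smcp (r = 0.974 to 0.991), for G6pc Retsat, Clca4b and Abca1 (r = 0.976 to 0.985) and for Slc5a1 they included Pklr and 4930562C15Rik (r = 0.996 and 0.992). Among the 7 genes themselves r ran from 0.691 to 0.984.

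The genes lie on separate chromosomes except Khk and Slc5a1. In GRCm38 annotation they span chr2:173153048-173159273 (Pck1, plus strand), chr3:28697903-28731359 (Slc2a2, plus strand), chr4:150119283-150144169 (Slc2a5, plus strand), chr5:30921431-30931248 (Khk, plus strand), chr5:33104219-33162870 (Slc5a1, plus strand), chr11:101367561-101377903 (G6pc, plus strand) and chr13:62864753-62888282 (Fbp1, minus strand). Slc2a2 overlaps an antisense gene, 1700112D23Rik, and the span of Slc5a1 contains Gm15936 and 5033423K11Rik, annotated as pseudogenes, so part of their reads could come from these where the counting did not separate them.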

How the data were processed

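RNA-seq and Ribo-seq were made as described above. Per the labels and the methods, the authors used cutadapt 1.18 for adapters, discarded ribosomal RNA and ran Salmon 1.1.0 against the protein-coding part of GENCODE vM21. The deposited files give an estimated count per sequence, which need not be whole, a TPM and an effective length. In the organoid Ribo-seq reference 5′ entries are separate and were left out, while the mouse reference includes 5′ regions. Per gene these estimates were added up, also over the technical libraries of a line, and rounded. TPM as deposited was used only for levels between genes and for Khk transcripts.

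The test was the quasi-likelihood test of edgeR 4.0.16 in R 4.3.3 (filterByExpr, TMM, Benjamini-Hochberg at 0.05), each comparison on its own groups. For translation efficiency the term tested was assay by group, with TMM within each assay. DESeq2 1.42.0 was an alternative. SCe numbers were taken to pair the assays because deviations from group means correlated in all 3 pairs (r = 0.108 to 0.27). Same-numbered RNA-seq samples of SCe and of WT or Rptor fl/fl organoids correlated at 0.216 to 0.325. The correlation therefore cannot establish that the SCe libraries were paired. The methods were tested on simulated data with the same spread in every library. No simulated library stood apart as SCe replicate 1 did, so that case was not covered.

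The genes and lists were chosen with earlier results of these data known. The text names the 7 genes, Rptor, at most 3 genes per list and comparison with the smallest adjusted p, and the 3 genes most correlated with each gene, of which some items are not reported here. Hnf4a, Lgr5 and Apoc3 levels, Tkfc and neighbouring genes were named after their values were seen. Depths are given in the report, and counting error alone does not cover the spread between samples. A table of the authors' own translation efficiency ratios, fold changes and p-values was not used.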

Additional observations from a re-analysis of the deposited data

Results flagged for a closer look

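Slc5a1 footprints on entries for the 5′ untranslated region, which enter no comparison of the report, were above those of SCe organoids in every Rptor fl/fl library. They numbered 64, 84 and 93 in Rptor fl/fl and 14, 10 and 28 in SCe libraries. The lowest Rptor fl/fl library had 10.6 CPM and the highest SCe library 8.54 CPM. The difference was not tested. As a share of the footprints on the coding sequence they were 2.57, 3.78 and 2.93% in Rptor fl/fl and 6.33, 3.05 and 1.57% in SCe libraries, which overlapped. On Khk the same kind of entry had 17, 13 and 10 footprints in Rptor fl/fl and 0, 2 and 0 in SCe libraries. Scaled to depth these were 2.82, 2.06 and 1.22 CPM and 0, 1.71 and 0 CPM, which overlapped. On G6pc there were 5, 1 and 7 footprints in Rptor fl/fl against 0 in each SCe library, where the library totals were smaller.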

How the results depend on the processing

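The directions of the 6 changes in mice and of the 3 called in Ribo-seq of organoids held under every alternative tried. Other results moved. Genes called in Rptor fl/fl against WT organoids numbered 3195, 7208 with technical libraries kept separate and 1544 in a single fit over 3 groups, where 0 of the 7 genes passed. With effective lengths as an offset they numbered 663 in place of 1781 in Ribo-seq of organoids (0 of the 7), 683 in place of 1548 in mice (4 of the 7, without Slc2a2 and Fbp1) and 117 in place of 315 in translation efficiency. Translation efficiency gave 1206 with DESeq2 (1 of the 7) and 1296 with technical libraries separate (1 of the 7). Chosen after seeing the data, leaving SCe replicate 1 out of both assays gave 2067 (3 of the 7) and pairing SCe numbers as a replicate block gave 506 (2 of the 7). The causes were not tested.

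Across groups the samples share only a number. RNA-seq deviations of same-numbered WT and Rptor fl/fl lines correlated at 0.406, a single value since each group has 2 lines, and those of mice at -0.016 to 0.0219. With this replicate block the genes called were 3154 in place of 6309 in SCe against WT organoids, 3413 in place of 6452 in Rptor fl/fl against SCe organoids and 4 in translation efficiency. Log2 changes reversed for G6pc (-0.87) and Slc5a1 (-0.50) in SCe against WT, for Pck1 (1.47) and G6pc (0.57) in Rptor fl/fl against SCe, and in translation efficiency for Khk (-0.27), Slc2a2 (-0.53) and Slc5a1 (-0.14), all short of the threshold. Fbp1 in SCe against WT turned to 0.085 with upper-quartile scaling, under which the median of all genes was 0.13 in place of 0.023 and Fbp1 stayed below that median, and to 0.0082 with technical libraries separate.

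Leaving out each library in turn, the counts of the 7 genes that passed were 1 to 2 in Rptor fl/fl against WT organoids, 0 to 5 in SCe against WT organoids, 0 to 2 in Rptor fl/fl against SCe organoids, 1 to 3 in Ribo-seq of organoids, 0 to 2 in translation efficiency and 4 to 6 in mice. Genes called then numbered 939 to 2126 in Rptor fl/fl against WT organoids, 2027 to 9530 in SCe against WT organoids, 2509 to 9101 in Rptor fl/fl against SCe organoids, 669 to 2682 in Ribo-seq of organoids, 25 to 946 in translation efficiency and 897 to 1954 in mice. A group left with 1 sample was assumed to vary like the others.

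Of the log2 changes that turned direction when 1 library was left out, those of Khk and Fbp1 in SCe against WT organoids passed in the turned direction without SCe replicate 1. They ranged in Rptor fl/fl against WT organoids Khk -0.23 to 0.36, Slc2a2 -0.30 to 0.49 and Pck1 -0.60 to 0.12. They ranged in SCe against WT organoids Khk -0.43 to 0.30, Fbp1 -0.47 to 0.50, Pck1 -1.0 to 0.37 and Slc5a1 -0.16 to 0.58. They ranged in Rptor fl/fl against SCe organoids Khk -0.19 to 0.54, Slc2a5 -0.079 to 0.77, Pck1 -0.63 to 0.74 and Slc5a1 -0.21 to 0.52. They ranged in translation efficiency Slc5a1 -0.019 to 0.80.

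Low counts limit what can be said of Pck1 and of G6pc footprints in organoids, and of Fbp1, Slc2a2 and Slc2a5 footprints in SCe libraries.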
